A study of Mus musculus with 6 samples.

Results

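IGHV3 is a family of heavy chain variable (V) genes of the mouse, and IGHV3-6 is its most used member. The family was examined in naïve follicular (FO) B cells of 1 iB-μMT mouse and 1 B6 mouse. A clonotype, that is a distinct nucleotide sequence of the heavy chain CDR3, was assigned to the family when its best V gene hit was an IGHV3 gene. This gave 715 IGHV3 clonotypes of 14575 in all, 442 of 7794 from the iB-μMT mouse and 273 of 6781 from the B6 mouse, and they used 6 of the 105 IGHV genes found. The other genes of the locus served as the background.

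The iB-μMT mouse was a μMT mouse (B6.129S2-Ighmtm1Cgn/J), a strain that makes no mature B cells of its own because the membrane exon of its μ chain gene is disrupted. It was irradiated with 5 Gy at an age of 8 to 10 weeks and given 5000000 hematopoietic progenitors (iHPCs) derived from an embryonic stem cell line of C57BL/6 background. The line carried GFP at the Hipp11 locus and a doxycycline-inducible cassette of Runx1, Hoxa9 and Lhx2 at the Rosa26 locus, and the mouse drank water with 1 mg/mL doxycycline. The B6 mouse was a C57BL/6 control, for which neither age nor treatment is given in the sources used here. From each spleen, 100000 naïve FO B cells were sorted by surface markers that include high IgD, IgM, high CD23 and CD21, from the iB-μMT mouse 4 weeks after transplantation. The cells and their libraries are called iB cells and B6 cells below. With 1 library per group, no difference has a replicate check, and each p-value below compares 2 libraries and not the conditions.

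A heavy chain gene is assembled in B cell progenitors by joining 1 V, 1 D and 1 J segment. Bases are trimmed from the segment ends, and terminal deoxynucleotidyl transferase can add bases that no template encodes. CDR3, which usually lies at the centre of the antigen binding site, spans these joints. The V segment thus supplies the first bases of CDR3 together with the whole of CDR1 and CDR2.

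The 5 largest IGHV3-6 clonotypes of each library, by reads, are shown here because they make the joints visible. Each line gives CDR3 from 5′ to 3′, and capitals mark the inserted nucleotides, those assigned neither to V, D nor J. Where no D gene was assigned, all bases between V and J are in capitals. The clonotypes of the iB-μMT mouse were the following.
iB-μMT 1: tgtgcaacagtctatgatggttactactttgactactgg
iB-μMT 2: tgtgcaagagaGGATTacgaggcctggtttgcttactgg
iB-μMT 3: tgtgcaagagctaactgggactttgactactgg
iB-μMT 4: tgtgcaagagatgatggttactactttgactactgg
iB-μMT 5: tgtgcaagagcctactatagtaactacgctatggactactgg

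The clonotypes of the B6 mouse were the following.
B6 1: tgtgcaagagGGGTTtttgactactgg
B6 2: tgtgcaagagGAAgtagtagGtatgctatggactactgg
B6 3: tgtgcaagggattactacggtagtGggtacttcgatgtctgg
B6 4: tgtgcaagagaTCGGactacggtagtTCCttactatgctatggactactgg
B6 5: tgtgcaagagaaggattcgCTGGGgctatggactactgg

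In each library, 4 of these 5 clonotypes had a D gene. No base was inserted in any of the 4 from the iB-μMT mouse, whereas 1 to 7 bases were inserted in those of the B6 mouse. They joined IGHD2-3 or IGHD2-5 or IGHD4-1 in iB cells, and IGHD1-1 in 3 cases and IGHD5-2 in 1 case in B6 cells. The germline end of IGHV3-6 can be read from the clonotypes in which the V end was neither trimmed nor changed, 179 in iB cells and 90 in B6 cells, and it was the same in all of them. The ends of the other IGHV3 genes, read in the same way, differed from it in length or in a base.
IGHV3-6: tgtgcaagaga
IGHV3-1 and IGHV3-8: tgtgcaaga
IGHV3-3: tgtgcgagaga
IGHV3-5: tgtgcacgaga

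No clonotype of IGHV3-4 had an untrimmed and unchanged V end. Among the IGHV genes that had 20 or more clonotypes in each of the libraries, IGHV3-6 alone had the 11-base end shown. In the RefSeq annotation of the mouse assembly GRCm38.p6, IGHV3-6 lies at chr12:114288152-114288447, and the family reaches from IGHV3-1 (chr12:113964390-113964683), nearest to the D segments, to IGHV3-8 (chr12:114322376-114322666). The V segments IGHV3-3, IGHV3-4 and IGHV3-5 lie between them, and so do IGHV3-2 and IGHV3-7, which the annotation lists as pseudogenes. No clonotype was assigned to either pseudogene.

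IGHV3 made up 5.67% of the heavy chain clonotypes in iB cells (95% Wilson interval 5.18 to 6.21%) and 4.03% in B6 cells (3.58 to 4.52%). The difference was 1.65 percentage points (95% Newcombe interval 0.948 to 2.34), a ratio of 1.41 (Fisher's exact test, two-sided, adjusted p = 1.19e-05 over 13 families). Of the 13 families, 30.8% were called higher and 7.69% lower in iB cells at an adjusted p under 0.05. Weighted by reads, IGHV3 held 74688 reads (8.21%) in iB cells and 64699 reads (4.68%) in B6 cells. The IGHV3 share was thus larger in the iB-μMT library on either scale. Shares within a library add up to the whole, so each depends on the others. IGHV1, the only family called lower, held 29.8% of clonotypes in iB cells and 59.3% in B6 cells. The other families called higher were IGHV2, IGHV5 and IGHV9, with ratios of 3.57, 2.47 and 1.39. The IGHV3 share among the clonotypes outside IGHV1 was not tested.

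IGHV3-6 accounted for 83.3% of the IGHV3 clonotypes in iB cells and 85.0% in B6 cells. It was found in 368 clonotypes, 4.72% of all (95% Wilson interval 4.27 to 5.22%), in iB cells and in 232, or 3.42% (3.01 to 3.88%), in B6 cells. The ratio was 1.38 and the difference 1.30 percentage points (95% Newcombe interval 0.658 to 1.94; Fisher's exact test, two-sided, adjusted p = 0.000213 over 77 IGHV genes). By clonotypes, IGHV3-6 was in place 4 of all IGHV genes in iB cells and in place 5 in B6 cells. By reads it was in place 2 in both, with 64017 and 58073 reads. Its ratio of clonotype shares was in place 21 of the 77 tested genes, whose median ratio was 0.921. Many of these genes belong to IGHV1, whose ratio as a family was 0.502, so this place and the median depend on them. The place of IGHV3-6 among the genes outside IGHV1 was not determined.

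The other 5 IGHV3 genes were rare and did not all differ to the same extent. IGHV3-8 had 31 clonotypes (3448 reads) in iB cells and 9 clonotypes (1354 reads) in B6 cells. Its clonotype shares were 0.398% and 0.133%, a ratio of 3.0 (Fisher's exact test, two-sided, adjusted p = 0.00434). IGHV3-1 had 31 clonotypes (5778 reads) and 24 clonotypes (4260 reads), with shares of 0.398% and 0.354%. Its ratio of 1.12 did not pass the threshold (Fisher's exact test, two-sided, adjusted p = 0.778), and the interval of its difference ran from -0.165 to 0.247 percentage points. By reads, IGHV3-1 held 0.635% and 0.308%, a ratio of 2.06, which was not tested. IGHV3-3 was found in 6 and 3 clonotypes, IGHV3-4 in 3 and 3, and IGHV3-5 in 3 and 2, too few to be tested. Thus 2 of the 3 IGHV3 genes tested were called higher and 0 lower in iB cells, against 26.0% higher and 36.4% lower among all 77 genes.

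**Figure D1:**
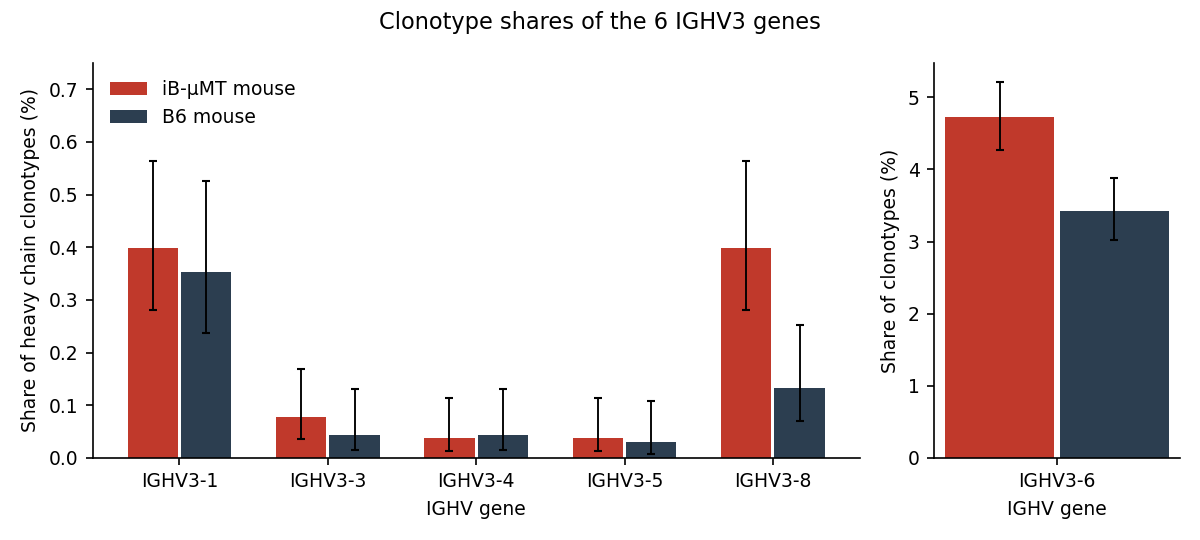
Share of heavy chain clonotypes (%) of the 6 IGHV3 genes in iB cells (red) and the B6 mouse (dark), with IGHV3-6 on its own axis. Bars are shares in 1 library each and error bars are 95% Wilson intervals, which cover counting error only; the intervals of the libraries do not overlap for IGHV3-6 and IGHV3-8 and overlap for the others.

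Genes of other families lie between IGHV3-1 and IGHV3-8. RefSeq lists 19 of them, of which 11 were found and 8 had enough clonotypes to be tested. Together the 11 made up 13% of the clonotypes in iB cells (95% Wilson interval 12.3 to 13.8%) and 9.98% in B6 cells (9.29 to 10.7%). Of the 8, IGHV9-3, IGHV14-3 and IGHV9-2 were called higher in iB cells and 0 lower (Fisher's exact test, two-sided, adjusted p = 7.91e-08, 0.0032 and 0.0446). Their ratios of clonotype shares ranged from 0.985 to 1.72 with a median of 1.11. The ratio of IGHV3-6 (1.38) lay inside this range, that of IGHV3-1 (1.12) near its median, and that of IGHV3-8 (3.0) above it.

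**Figure D2:**
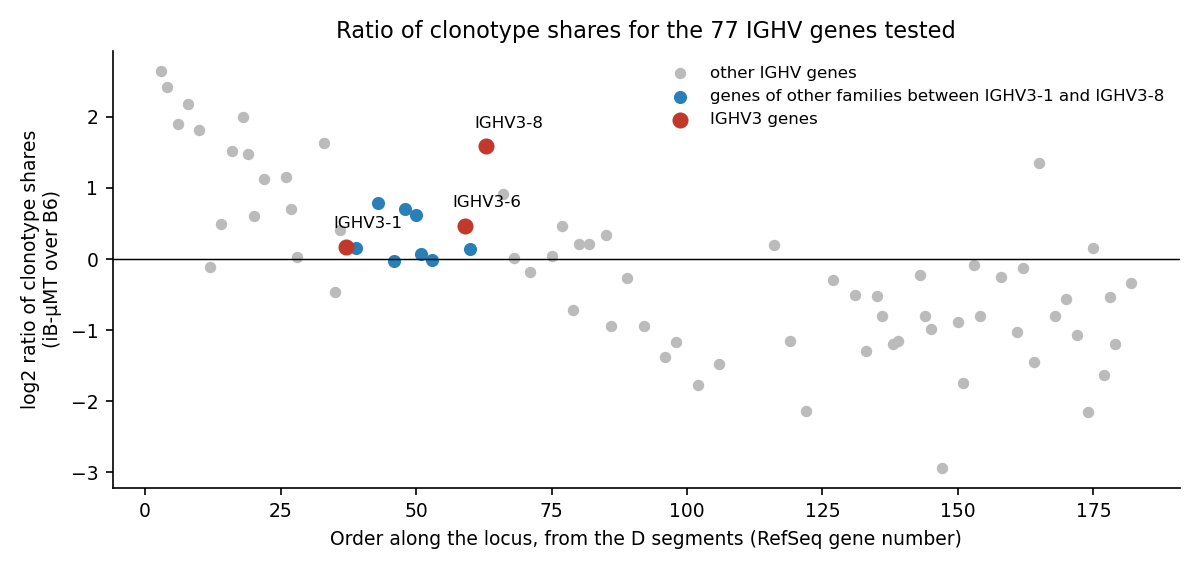
Log2 ratio of the clonotype share in iB cells over that in B6 cells for the 77 IGHV genes tested, in their order along the locus from the D segments (gene number in RefSeq). IGHV3-1, IGHV3-6 and IGHV3-8 (red) lie at 0.17, 0.46 and 1.58, and the genes of other families between them (blue) lie from -0.02 to 0.78.

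Of the 10 IGHV genes that had 100 or more clonotypes in each of the libraries, the one with the ratio most like that of IGHV3-6 was IGHV9-3, with 5.77% and 3.78% of clonotypes and a log2 ratio of 0.61 against 0.46. IGHV5-17 (log2 ratio 0.03) and IGHV6-3 (0.01) followed at a distance of 0.44 and 0.45 on the log2 scale. Unlike IGHV3-6 and IGHV9-3, these genes were not called different between the libraries. Genes with fewer clonotypes, such as IGHV5-9 (log2 ratio 0.50), had nearer ratios but fell below this minimum. This likeness rests on 2 libraries and describes 1 ratio per gene.

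Fewer nucleotides were inserted in IGHV3-6 clonotypes of the iB-μMT mouse than in those of the B6 mouse. Over the clonotypes with a D gene, the mean number was 3.73 ± 2.94 (SD over 312 clonotypes) in iB cells and 5.65 ± 3.45 (201 clonotypes) in B6 cells. The medians were 3 and 5, and the ranges overlapped almost entirely, 0 to 17 and 0 to 18. The joint of V and D held 2.69 and 3.49 on average and that of D and J held 1.04 and 2.16, so that the larger difference lay at the joint of D and J. There, 59.3% of IGHV3-6 clonotypes in iB cells (95% Wilson interval 53.8 to 64.6%) and 33.8% in B6 cells (27.6 to 40.6%) had no insertion, beside 53.8% and 28.6% in the other IGHV families. At the joint of V and D the shares were 24.4% (19.9 to 29.4%) and 15.4% (11.1 to 21.1%), beside 16.1% and 11.2% in the other families. The family as a whole gave means of 3.88 and 5.68, and the IGHV3 genes other than IGHV3-6 gave 4.63 ± 3.19 (62 clonotypes) and 5.85 ± 3.11 (39 clonotypes).

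Joints without any inserted nucleotide were found in 38 of 312 IGHV3-6 clonotypes in iB cells, 12.2% (95% Wilson interval 9.0 to 16.3%), and in 7 of 201 in B6 cells, 3.48% (1.70 to 7.01%). IGHV3-6 was among the 9 of 58 IGHV genes (15.5%) in which this share was called higher in iB cells (Fisher's exact test, two-sided, adjusted p = 0.0183). Called or not, the share was higher in iB cells in 54 of the 58 genes, with medians over genes of 8.20% and 2.20%. The call for IGHV3-6 depends on how bases that MiXCR places beyond the ends of D and J, as palindromic nucleotides, are treated. Counted as inserted, they left 4.17% and 1.49% of IGHV3-6 clonotypes without insertion, and the adjusted p was 0.354. The mean number of inserted nucleotides was then 5.64 and 7.82. Counted in the same way, 4.01% and 1.05% of clonotypes of the other IGHV families had no insertion, close to the shares of IGHV3-6.

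The direction was shared by nearly all of the locus. The mean was lower in iB cells in 57 of the 58 IGHV genes that had 20 or more such clonotypes in each of the libraries. The exception was a member of the family, IGHV3-1, with 5 ± 3.01 (26 clonotypes) in iB cells and 4.91 ± 2.61 (23 clonotypes) in B6 cells. The difference of IGHV3-6, -1.92, was in place 36 by size, and the median over genes was -2.04. Within each library, however, IGHV3-6 was among the genes with few insertions, in place 12 from the lowest mean in iB cells and place 11 in B6 cells. Clonotypes of the other IGHV families had 4.35 ± 3.09 and 6.39 ± 3.88 inserted nucleotides, and 8.59% and 2.79% of them had none.

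**Figure D3:**
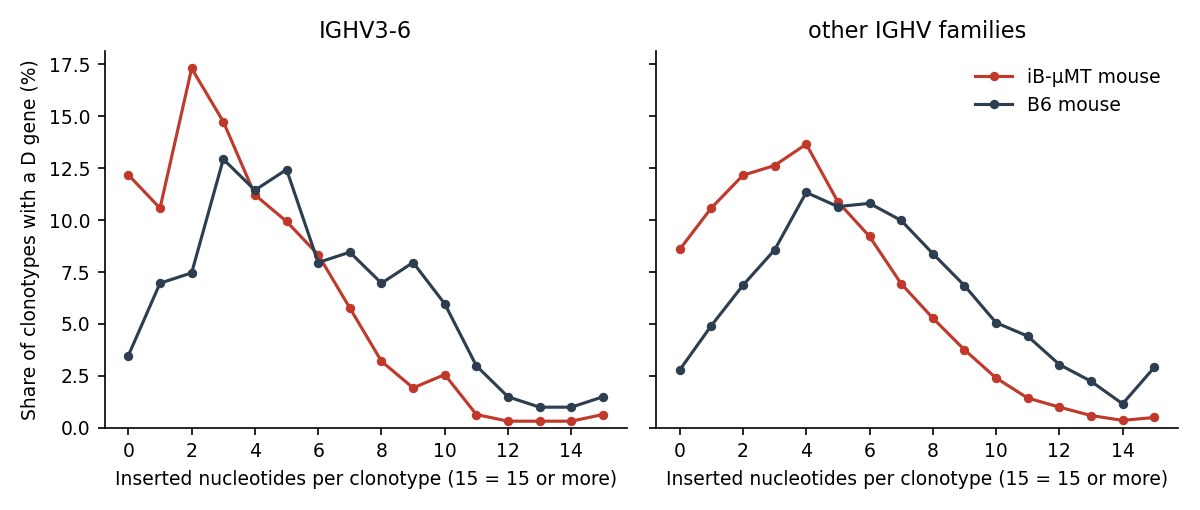
Share of clonotypes with a D gene (%) by the number of inserted nucleotides, for IGHV3-6 (left) and the other IGHV families (right), in iB cells (red) and the B6 mouse (dark); 15 stands for 15 or more. Among IGHV3-6 clonotypes, 12.2% had 0 in iB cells and 3.48% in B6 cells.

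The V end of IGHV3-6 was left untrimmed in 51.4% of clonotypes in iB cells (95% Wilson interval 46.3 to 56.4%) and in 40.5% in B6 cells (34.4 to 46.9%). On average 1.02 and 1.28 bases were removed. In the other IGHV families the V end was untrimmed more often, in 74.3% and 71.5% of clonotypes, and in the remaining IGHV3 genes in 73.0% and 68.3%. As the coding ends above show, the end of IGHV3-6 was 2 bases longer than those of IGHV3-1 and IGHV3-8, so bases removed are counted from different ends.

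The V part of CDR3 differed from the reference in 4.62% of IGHV3-6 clonotypes (95% Wilson interval 2.90 to 7.27%) in iB cells and in 3.02% (1.47 to 6.10%) in B6 cells. Counted from 1 at the 5′ end of CDR3, the change found most often was A9G, in 6 and 3 clonotypes, respectively, and it is present in the clonotype B6 3 shown above. Bases near a joint can be assigned to a changed V end or to an insertion, so these differences need not be mutations. In the other IGHV families the V part differed in 1.63% of clonotypes in iB cells and 2.04% in B6 cells, the reverse order. In the remaining IGHV3 genes it differed in 0 of 74 and 2 of 41 clonotypes.

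CDR3 of IGHV3-6 clonotypes was 13.6 ± 2.42 amino acids long (SD over 368 clonotypes) in iB cells and 14 ± 2.61 (232 clonotypes) in B6 cells. The difference was small beside the spread over clonotypes, and the median was 14 in both. The lengths ranged from 4 to 23 and from 8 to 21 amino acids. Long CDR3s of 17 amino acids or more made up 11.4% (95% Wilson interval 8.56 to 15.1%) and 19.8% (15.2 to 25.4%), and short ones of 11 amino acids or fewer made up 17.7% (14.1 to 21.9%) and 14.7% (10.7 to 19.8%). In the other IGHV families the means were 13.6 and 13.9 amino acids, and long CDR3s made up 11% and 17.2%. Weighted by reads, the difference in mean length of IGHV3-6 was -0.804 amino acids, and -0.857 without the largest clonotype of each library.

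Among J genes, IGHJ2 was the most frequent partner of IGHV3-6 in both mice, with 36.4% of clonotypes in iB cells (95% Wilson interval 31.7 to 41.4%) and 30.2% in B6 cells (24.6 to 36.4%). IGHJ4 had 21.5% (17.6 to 25.9%) and 28.9% (23.4 to 35.0%). IGHJ3 had 26.9% and 23.3%, and IGHJ1 had 15.2% and 17.7%. For each J gene the intervals of the libraries overlapped. In the other IGHV families IGHJ4 went the other way, with 30.1% and 27.0%, whereas IGHJ2 had 33.1% and 32.9%.

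Among D genes, IGHD1-1 was joined to IGHV3-6 in 18.9% of the clonotypes with a D gene in iB cells (95% Wilson interval 15 to 23.6%) and in 34.8% in B6 cells (28.6 to 41.6%). Genes of the IGHD2 family were joined in 57.7% (52.1 to 63.0%) and 43.3% (36.6 to 50.2%). Of these, IGHD2-3 had 18.3% and 11.4%, and IGHD2-8 had 9.29% and 2.99%. IGHD4-1, one of the shortest D genes, had 15.1% and 8.96%. The other IGHV families had IGHD1-1 in 22.4% and 34.2% of clonotypes and IGHD4-1 in 18.9% and 9.79%. They had the IGHD2 family in 49.8% and 44.1%, IGHD2-3 in 16% and 11.3%, and IGHD2-8 in 8.09% and 5.41%. For these D genes IGHV3-6 and the other families thus differed in the same direction. IGHD2-7 went the other way, with 7.37% and 2.99% in IGHV3-6 and 5.07% and 5.62% in the other families. No D gene was assigned in 15.2% and 13.4% of IGHV3-6 clonotypes. The shares of J and D genes were not tested.

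**Figure D4:**
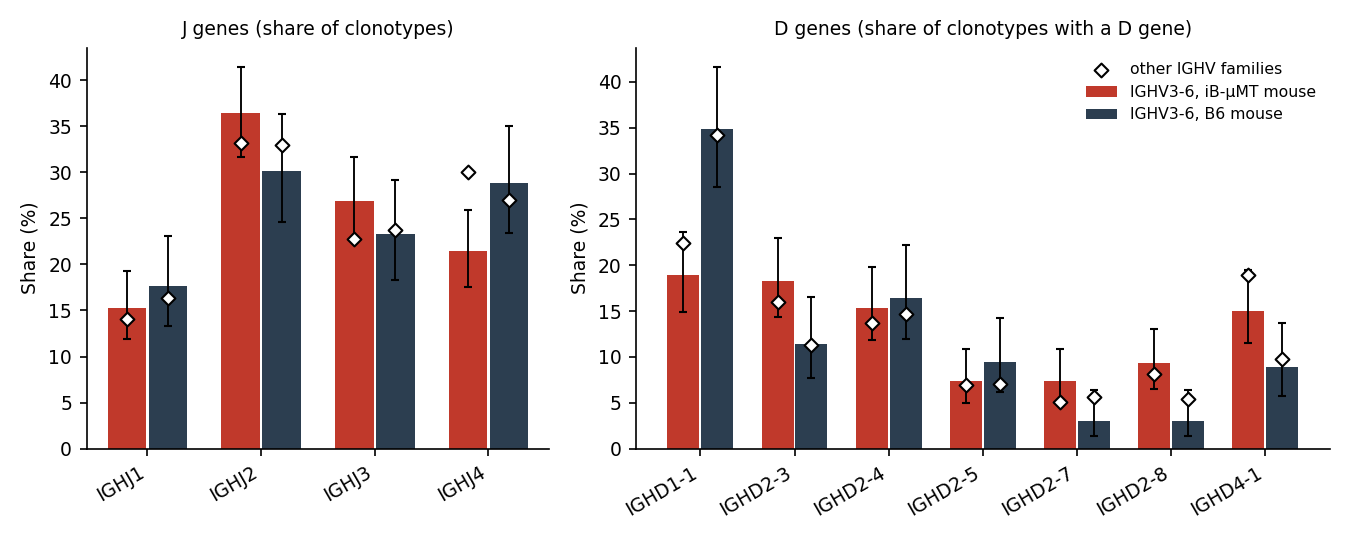
Share of IGHV3-6 clonotypes (%) with each J gene (left) and, among those with a D gene, with the 7 D genes used most (right), in iB cells (red) and the B6 mouse (dark). Error bars are 95% Wilson intervals and open diamonds are the shares in the other IGHV families of the same library; IGHD1-1 stands at 18.9% and 34.8%.

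IGHV3-6 clonotypes held 1 to 5930 reads in iB cells, with a median of 139.5, and 1 to 771 reads in B6 cells, with a median of 241.5. All other clonotypes had medians of 94 and 181 reads. The clonotypes named iB-μMT 1 and B6 1 above were the largest. iB-μMT 1 held 5930 reads, 9.26% of all IGHV3-6 reads and 8.41 times the 705 reads of iB-μMT 2. B6 1 held 771 reads, 1.33% of the IGHV3-6 reads and 1.07 times the 721 reads of B6 2. The IGHV3-6 share of reads was 7.04% and 4.20%, a ratio of 1.68, and without the largest clonotype of each library it was 6.43% and 4.14%.

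iB-μMT 1 joined IGHV3-6 to IGHD2-3 and IGHJ2 and encoded 13 amino acids. MiXCR removed 1 base from its V end, placed the substitution G8C in the V part, and left 0 bases as inserted. Its 29 bases from the start of D to the end of CDR3 also closed 10 clonotypes of other IGHV genes in iB cells and 0 in B6 cells, where 0 of 6781 clonotypes allows a share of up to 0.0442%. This count was made after the clonotype had been seen. No other clonotype of the same length in iB cells was within 2 mismatches of it, and the nearest had 3.

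The largest clonotype weighed on some measures taken over reads. Clonotypes without inserted nucleotides held 24.9% of the IGHV3-6 reads with a D gene in iB cells and 15.3% without iB-μMT 1, against 3.42% in B6 cells. IGHJ2 held 43.0% of the IGHV3-6 reads in iB cells, 37.2% without iB-μMT 1, and 30.5% in B6 cells. Reads were counted without molecular identifiers, so a large clonotype can hold many cells, much RNA per cell or many amplified copies, which cannot be told apart here.

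**Figure D5:**
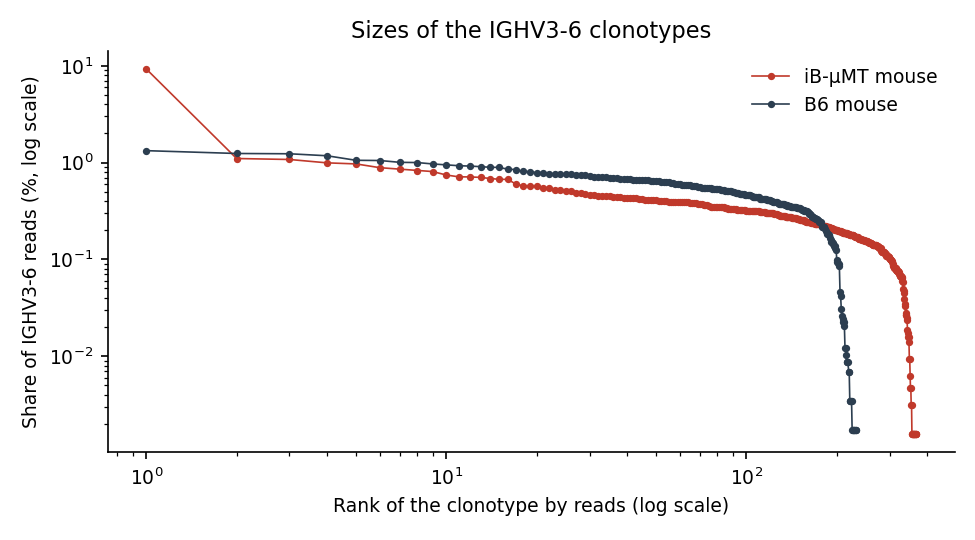
Share of the IGHV3-6 reads of a library (%) held by each IGHV3-6 clonotype, ranked by reads, in iB cells (red, 368 clonotypes) and the B6 mouse (dark, 232 clonotypes), both axes on log scales. The first clonotype of the iB-μMT mouse, with 9.26%, stands apart from the 1.10% of the next one, and the largest of the B6 mouse held 1.33%.

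A single IGHV3 clonotype was found in both libraries, of 34 such clonotypes in the whole heavy chain repertoire. That was 0.226% of the IGHV3 clonotypes in iB cells and 0.366% in B6 cells, beside 0.436% and 0.501% of all clonotypes. The shared IGHV3 clonotype joined IGHV3-6, IGHD4-1 and IGHJ3 with 10 inserted nucleotides and had 1 read in each library. It is shown because it is the only IGHV3 sequence listed in both tables. With 1 read in each table, its presence in cells of both mice was not tested.
Shared: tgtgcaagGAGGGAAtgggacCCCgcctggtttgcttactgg

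Beside the sort for IgD++ and IgM+ cells, the C gene of the transcripts was the only marker of the cells that these tables hold. All 432 IGHV3 clonotypes with a C gene in iB cells and all 266 in B6 cells had IGHM. Among the clonotypes with a C gene, the count of 0 other C genes allows a share of up to 0.694% and 1.13%, respectively. The constant region primer is not given in the sources used here. A primer for 1 C gene would give the same count, so it sets no limit on other isotypes in the cells. The libraries are named IgG in the labels, and no IGHV3 clonotype with an IgG constant gene was found. A stop codon lay in CDR3 of 4 IGHV3 clonotypes (0.905%) in iB cells and 7 (2.56%) in B6 cells, beside 53 and 150 of all heavy chain clonotypes. Every clonotype in the tables was in frame.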

How the data were processed

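The authors amplified total RNA by 5′ RACE, sequenced the products as paired reads (Illumina MiSeq), and used MiXCR (version 3.0.13) to build clonotypes. The authors deposited a read count per clonotype, which was used as deposited and without normalization. The submitters' notes also name mm10. The 2 heavy chain libraries, of 909806 reads (iB-μMT) and 1383617 reads (B6), were used, and the 4 light chain libraries were not used here. Median reads per clonotype were 96 and 184. The floor of 3 counts was used only for counts of 0.

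The first hit listed for each segment was taken, alleles removed, and each clonotype was counted once unless reads are named. All 105 gene names matched the RefSeq gene table (GRCm38.p6), from which positions and order were taken. Inserted nucleotides were the bases that MiXCR left outside V, D and J, in clonotypes with a D hit. Shares were given with 95% Wilson intervals and their differences with 95% Newcombe intervals, which cover counting error only. Genes with at least 20 clonotypes in both libraries together, and for insertions at least 20 in each, entered Fisher's exact test (two-sided) with Benjamini-Hochberg adjustment over all of them, at a threshold of 0.05. The test was checked on simulated data. Every IGHV3 gene was named, with the tested genes between the outermost ones, the 3 genes of at least 100 clonotypes per library with the nearest ratio, the 5 largest IGHV3-6 clonotypes per library and each shared one. The family, the lists and the tests were chosen with earlier results of these data known. Python 3.11.15, NumPy 2.4.6, SciPy 1.17.1, pandas 2.3.3 and matplotlib 3.10.9 were used.

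The alternatives were at least 2 reads, at least 5 reads, at least 10 reads in 1000000, merging of clonotypes 1 mismatch from one with at least 10 times the reads, productive clonotypes, a unique best V gene, no shared clonotypes, weighting by reads, no largest clonotype, at least 8 nucleotides of D, and a minimum of 5 clonotypes. Palindromic nucleotides counted as inserted, and weighting by reads without the largest clonotype, were added after seeing the data.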

Additional observations from a re-analysis of the deposited data

How the results depend on the processing

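Of 129 recomputed values of 14 results, 121 kept their direction and their side of the threshold or moved by less than the counting error, and none changed sign. IGHV3-6 and IGHV3-8 were called higher in the iB-μMT mouse under each of the 8 alternatives run for that count. The adjusted p of the IGHV3-6 share was between 0.000207 and 0.00066 and that of the family between 6.64e-06 and 1.88e-05 where they were tested. Weighted by reads, the difference between the mice was 3.53 percentage points for the IGHV3 share and 2.84 for the IGHV3-6 share in place of 1.65 and 1.30, and 19.0 and 21.5 percentage points for the share without inserted nucleotides in the family and in IGHV3-6 in place of 8.85 and 8.70. The difference in mean inserted nucleotides of IGHV3-6 was then -2.51 in place of -1.92. Weighted by reads without the largest IGHV3-6 clonotype, the difference in mean CDR3 length of IGHV3-6 was -0.857 amino acids in place of -0.431. With palindromic nucleotides counted as inserted, the share without insertion differed by 2.49 percentage points in the family and 2.67 in IGHV3-6, where the adjusted p was 0.354 (range over the alternatives 0.00478 to 0.354) in place of 0.0183. The cause of these changes was not tested. No paired analysis was possible because each group had 1 library. The numbers of clonotypes limit the precision, most of all for IGHV3-3, IGHV3-4 and IGHV3-5.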
